A study of Mus musculus with 6 samples.

Results

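The comparison concerns wild-type mouse regulatory T cells (Treg) that were stimulated in the presence of iBP and Treg that were stimulated without it. Each group had 2 SMART-seq libraries, so 4 of the 6 libraries of the series enter it, and the remaining 2 are unstimulated Treg. All 6 were labelled as Treg of WT genotype from spleen and lymph nodes, without age, sex or strain. The series' design text calls iBP an inhibitor of H2AK119ub1, and the unstimulated group carries no treatment. The labels leave out the stimulus, its length, the dose and timing of iBP, the way the cells were isolated and the number of mice behind a library. Kdm2b conditional knockout cells, which the design text also names, were not analysed here. No group received iBP without stimulation, so a difference seen with iBP cannot be assigned to the stimulated state alone. A gene was tested when its FPKM (a fragment count per unit of transcript length and of sequenced library) was at least 1 in at least 2 of the 6 libraries, which 10436 of 24421 genes met.

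Treg are CD4 T lymphocytes that express the transcription factor Foxp3 and restrain immune responses. H2AK119ub1 is a single ubiquitin on lysine 119 of histone H2A, placed by Polycomb repressive complex 1 (PRC1) through its catalytic subunits Ring1 and Rnf2 and found at genes that are kept silent. Kdm2b recruits one form of the complex, PRC1.1, to unmethylated CpG islands. Deubiquitinases that contain Bap1 or Usp16 remove the mark. Silent developmental regulators are the classical targets of the complex.

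One gene passed the test, Dnajb11, and it was higher with iBP. It encodes a co-chaperone of the endoplasmic reticulum (ER) that delivers unfolded secretory proteins to Hspa5 (BiP). Dnajb11 stood at 2.69 and 2.44 FPKM in the stimulated libraries and at 16.1 and 13.95 with iBP, and at 21.0 and 16.9 in the unstimulated cells. The iBP libraries thus lay well above the stimulated ones and just under the unstimulated ones, with no overlap between any pair of groups. The difference with iBP was 2.17 ± 0.23 on the log2(FPKM + 1) scale (standard error, 95% interval 1.67 to 2.66, limma adjusted p = 0.00813), 5.86-fold in mean FPKM. Adjusted p-values come from limma with Benjamini-Hochberg adjustment over all tested genes, here and below. Stimulated against unstimulated cells differed by -2.48 (log2, adjusted p = 0.000198, a direction called for 0.326% of tested genes) and iBP-treated against unstimulated cells by -0.31 (adjusted p = 0.648), and these contrasts share libraries with the first. Calls made up 0.00958% of tested genes in the higher direction and 0.0% in the lower direction, where limma called no gene. At an unadjusted p under 0.05 the shares were 1.46% higher (152 genes) and 3.32% lower (346 genes). The Dnajb11 call rests on few libraries: the adjusted p became 0.068 when stimulated replicate 1 was left out, 0.147 for stimulated replicate 2 and 0.0607 for iBP replicate 1, while the difference stayed between 2.07 and 2.26 with any 1 library left out. It was also lost without the filter on low values (adjusted p = 0.205) and without the variance trend (0.2).

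Dnajb11 lies on the forward strand at chr16:22857845-22879634 in GRCm38 and is protein coding. The gene before it, Tbccd1, ends at position 22857695, so only 149 bases separate the annotated ends of the 2 genes. That stretch, chr16:22857696-22857844, is shown because it is the sequence directly upstream of the one gene called, with each ATTGG in capitals. On the opposite strand these letters are the CCAAT box.

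Dnajb11: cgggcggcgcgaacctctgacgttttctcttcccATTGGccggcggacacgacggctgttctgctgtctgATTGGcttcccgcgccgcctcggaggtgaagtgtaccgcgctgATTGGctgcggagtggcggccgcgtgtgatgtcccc

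The stretch holds ATTGG 3 times and CCAAT 0 times. Over the whole 300-base window of the RefSeq promoter table (build GRCm38.p6), which runs on into Tbccd1 and into the first bases of Dnajb11, the box occurred 5 times on either strand. It occurred at least 3 times in 3.37% of all 32851 windows, and at least once in 37.4%. CCAAT boxes are bound by NF-Y, and together with a CCACG at a fixed distance they form the ER stress response element, CCAAT and CCACG with 9 bases of any kind between them, a known binding sequence of ATF6 and XBP1 with NF-Y. The full element was searched on both strands. It was in 39 of the 32851 windows (0.119%), in 15 of the 8265 tested genes that matched a window (0.181%) and in 9 of the 38 genes of the ER list below that matched one, but those letters were not in the Dnajb11 window. The elements of the ER chaperones and folding enzymes among the 9 are shown for comparison (Hsp90b1 holds 2, and those of Creld2, Syvn1 and Derl3 are not printed), each read 5′ to 3′ on its own strand with the 2 boxes in capitals.

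Hspa5: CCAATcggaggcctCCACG
Hsp90b1, first: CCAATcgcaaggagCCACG
Hsp90b1, second: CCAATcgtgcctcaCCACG
Calr: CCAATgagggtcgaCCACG
Canx: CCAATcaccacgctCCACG
Pdia6: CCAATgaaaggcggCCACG
Dnajc3: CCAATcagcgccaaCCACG

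Genes of the ER list that carry the element had iBP differences between -0.17 and 0.18 (log2), with 95% intervals that reached from -1.19 to 0.86 over the 9 genes. Hspa5, the main ER chaperone and the partner of Dnajb11, stood at 608 and 635 FPKM without iBP and at 567 and 563 with it (-0.14 ± 0.10). Xbp1, a transcription factor of the unfolded protein response, stood at 281 and 289 against 266 and 271 (-0.09 ± 0.11). Ddit3 (CHOP), which that response induces through Atf4, stood at 55.8 and 64.6 against 68.8 and 77.2 (0.28 ± 0.14, unadjusted p = 0.0717), and Atf4 itself differed by -0.23 ± 0.14. None of these 4 genes passed the test, and Dnajb11 was the only one of the 46 tested members of the list of ER chaperones and unfolded protein response genes with even an unadjusted p under 0.05. The list's median difference was -0.04, against -0.03 over all tested genes. Of its members 19 were above 0 and 27 below, beside 44.2% above 0 over all tested genes. Rescaling to a common total (TPM) gave 23 above and 23 below. There, with median-of-ratios factors and after quantile normalization, 3 members were higher at an unadjusted p under 0.05. Of all 10436 tested genes 200, 209 and 216 were higher, in the same order of scalings. After Dnajb11 the furthest members were Ern1 (IRE1, a sensor of unfolded protein) at 0.51 ± 0.37, Hyou1 (an ER chaperone) at 0.39 ± 0.33 and Eif2ak3 (PERK, another sensor) at 0.34 ± 0.20, all with intervals that include 0. The 18 tested ATF4 targets and serine and one-carbon genes had a median of -0.14. At an unadjusted p under 0.05, 1 member was lower and none higher, beside 3.32% and 1.46% over all tested genes. With each of the 3 other scalings 1 was higher and none lower.

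Genes beside Dnajb11 on chromosome 16 did not pass the test. Tbccd1, which is transcribed away from it, stood at 3.79 and 4.83 FPKM in stimulated cells and at 2.61 and 2.56 with iBP (-0.56 ± 0.38, unadjusted p = 0.169). Eif4a2, an RNA helicase gene farther along, stood at 244 and 266 against 295 and 247 (0.09 ± 0.12). Etv5 and Snord2 differed by 0.11 and -0.18. An antisense RNA gene, Gm30505 (chr16:22874983-22894386), overlaps the end of Dnajb11 and was below the filter. No source used here says whether reads were counted by strand, so reads from that overlap cannot be told apart.

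**Figure D1:**
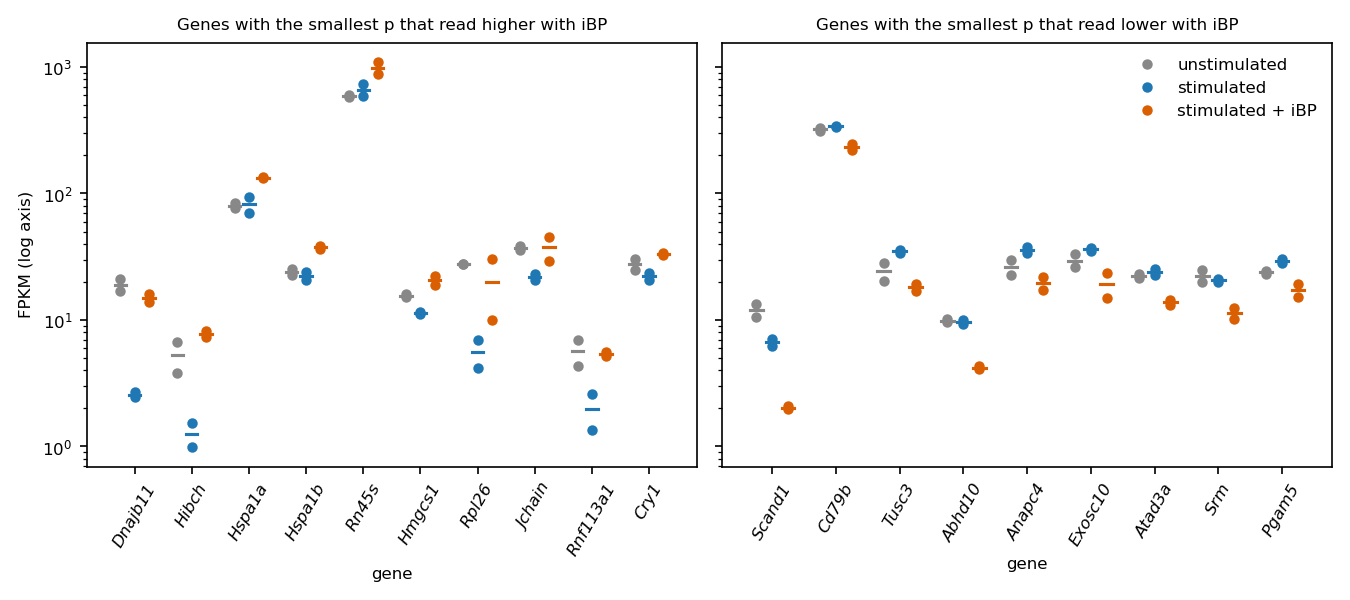
FPKM of each library on a log axis for the 10 genes with the smallest p that read higher with iBP (left) and 9 of the 10 that read lower (right), among genes with no overlap between the 2 groups and a mean of at least 5 FPKM in the higher one. Points are libraries, bars are group means, grey is unstimulated, blue stimulated and orange stimulated with iBP. Dnajb11 alone passed the test, with stimulated libraries at 2.69 and 2.44 FPKM and iBP libraries at 13.95 and 16.1.

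The files hold no read counts, so depth is unknown. Between 13293 and 13592 genes were above 0 in the 4 libraries compared, and summed FPKM was 375821 and 378906 without iBP and 366044 and 366722 with it. Over all tested genes the median difference with iBP was -0.03 (log2), and the 25th and 75th percentiles were -0.20 and 0.13. Of these genes 4615 (44.2%) lay above 0 and 5820 below, and counts within lists are to be read beside that. An unadjusted p under 0.05 was reached by 498 genes (4.77%), where 521.8 are expected if no gene differs, and by 329 with iBP replicate 2 left out. The split of 152 higher and 346 lower depended on the scaling, with 200 higher and 250 lower after rescaling to TPM, 209 and 260 with median-of-ratios factors and 216 and 247 after quantile normalization. The number lower was 196 without stimulated replicate 2 and 219 without iBP replicate 2. Libraries of the 2 groups did not overlap in 3611 genes (34.6%), 1419 of them higher with iBP (13.6%) and 2192 lower (21.0%). A difference of at least 2-fold was fitted for 122 genes (1.17%). The median half-width of the 95% interval was 0.57, rising to 0.77 for genes of 1 to 5 FPKM and falling to 0.27 for genes of 100 FPKM and above. The interval lay within 2-fold either way for 7707 genes (73.9%).

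**Figure D2:**
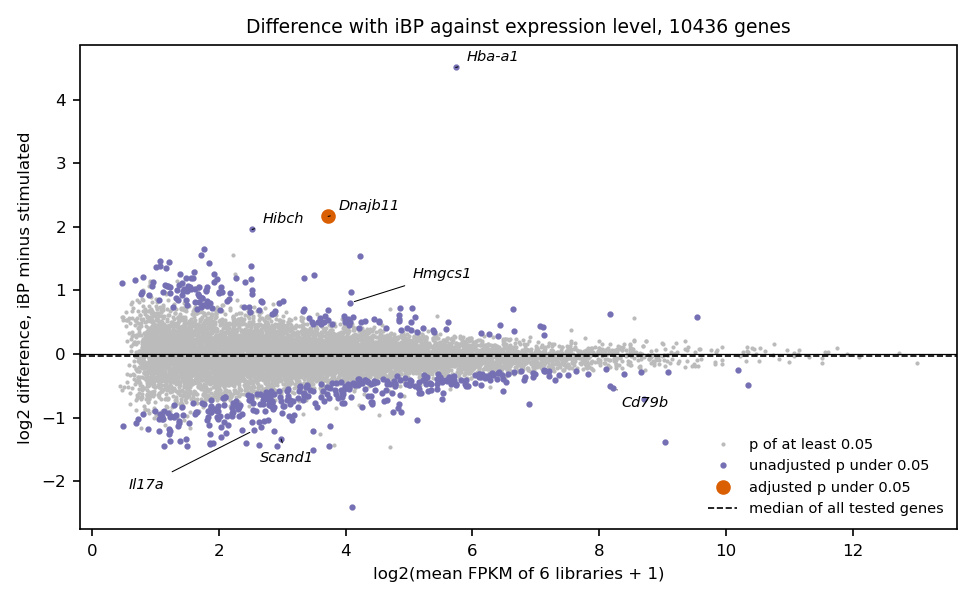
Difference between stimulated cells with and without iBP (vertical axis, log2) against mean level over the 6 libraries (horizontal axis, log2 of mean FPKM + 1) for all 10436 tested genes. Dnajb11 is the only gene past the adjusted threshold, Hba-a1 is the highest point, and most genes lie close to the dashed median of -0.03.

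The next genes by p did not pass the adjusted test and are given as values. Hibch, a mitochondrial enzyme of valine breakdown (chr1:52845038-52920986), stood at 1.52 and 0.985 FPKM in stimulated cells, at 8.12 and 7.32 with iBP and at 3.82 and 6.71 without stimulation. Its difference was 1.96 ± 0.32 (unadjusted p = 5.78e-05, adjusted p = 0.302), and as for Dnajb11 the stimulated libraries were the lowest of the 6. Hspa1a, an inducible cytosolic Hsp70, stood at 70.5 and 93.8 against 132 and 134, with 83.6 and 76.1 in unstimulated cells (0.70 ± 0.15, adjusted p = 0.683). Hspa1b is a close copy, and reads may have been split between the 2 genes. Their summed level was 91.3 and 117.8 FPKM without iBP and 168.6 and 172.5 with it, so both iBP libraries lay above the other 4. Across the 20 tested cytosolic heat shock genes the median was 0.00, and no member besides this pair had an unadjusted p under 0.05. Over all tested genes the shares at that threshold were 1.46% higher and 3.32% lower. With the other scalings 4 members (TPM and median-of-ratios factors) or 3 (quantile normalization) were higher at that threshold. Of all 10436 tested genes 200, 209 and 216 were higher there, in the same order of scalings.

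Hmgcs1, the enzyme that makes HMG-CoA for cholesterol synthesis, stood at 11.2 and 11.5 FPKM in stimulated cells and at 22.3 and 18.9 with iBP (0.81 ± 0.19, unadjusted p = 0.00121, adjusted p = 0.774). Its unstimulated libraries were between the other groups, at 15.1 and 16.1. Rn45s, the ribosomal RNA precursor, stood at 735 and 585 against 877 and 1098 (0.58 ± 0.14); it is a product of RNA polymerase I without the poly(A) tail that the priming targets. Jchain, which links antibody polymers in plasma cells, stood at 23.0 and 20.7 against 29.3 and 45.7 (0.72 ± 0.20), and Cry1, a repressor of the circadian clock, at 23.5 and 20.8 against 32.3 and 33.7 (0.56 ± 0.17). Rnf113a1 differed by 1.13 ± 0.33. Rpl26, a ribosomal protein gene, stood at 4.15 and 6.92 against 30.3 and 9.95. Its iBP libraries lay far apart, and the gene has pseudogene copies that can share its reads.

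Among genes that read lower, Scand1, a small nuclear protein with a SCAN domain (chr2:156311846-156312704), stood at 6.28 and 7.08 FPKM without iBP and at 1.96 and 2.101 with it, and at 10.6 and 13.3 in unstimulated cells. The 3 groups did not overlap, and the difference with iBP was -1.34 ± 0.26 (unadjusted p = 0.000261, adjusted p = 0.6). Tusc3, a subunit of the ER oligosaccharyltransferase (chr8:39005351-39167050), stood at 35.7 and 34.0 against 17.0 and 19.2 (-0.91 ± 0.19, adjusted p = 0.683). Abhd10 stood at 10.04 and 9.21 against 4.09 and 4.29 (-1.03 ± 0.23). Each of these genes had tight pairs of libraries on both sides, which the choice by small p and no overlap favours. Further genes were Anapc4, a subunit of the anaphase-promoting complex (-0.85 ± 0.19), Exosc10, a nuclease of the nuclear exosome (-0.92 ± 0.21), Atad3a, a mitochondrial membrane ATPase (-0.76 ± 0.18), Srm, spermidine synthase (-0.83 ± 0.20), and Pgam5, a mitochondrial phosphatase (-0.73 ± 0.18), with adjusted p-values of 0.774 or 0.775.

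Cd79b, a signalling chain of the B-cell receptor (chr11:106311341-106314562), stood at 336 and 340.3 FPKM in stimulated cells, at 222 and 244 with iBP and at 329 and 314 in unstimulated cells (-0.54 ± 0.11, unadjusted p = 0.000345, adjusted p = 0.6). The iBP libraries were the lowest 2 of the 6. Its partner chain Cd79a stood at 291 and 234 against 265 and 283 (0.07 ± 0.12), and the B-cell surface gene Ms4a1 differed by -0.05 ± 0.12. Cd79b was the only 1 of 18 tested B-cell markers with an unadjusted p under 0.05 in the lower direction (3.32% over all tested genes). The list's median was 0.02.

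The Treg label was checked against its defining genes. Foxp3 stood at 121 and 101 FPKM in stimulated cells and at 122 and 124 with iBP, above 35.5 and 47.1 in unstimulated cells. Il2ra, the high-affinity IL-2 receptor chain, stood at 175 and 204 against 170.4 and 164, Ctla4, an inhibitory receptor, at 258 and 286 against 291 and 287, and Ikzf2 (Helios) at 39.7 and 44.3 against 46.4 and 46.8. All 6 libraries thus expressed the genes that define Treg. Transcripts of other cells were also present at high levels. Of 20 B-cell markers listed, 18 had values in the deposited data, and all 18 passed the filter. They summed to 11370.0 and 9561 FPKM in unstimulated cells, to 9924 and 10970.0 after stimulation and to 10170.0 and 9996 with iBP. Cd79a stood at 234 to 291 FPKM over the 6 libraries, beside 57.6 to 83.3 for the T-cell gene Cd3e. The markers of B cells and of dendritic cells share MHC class II genes such as H2-Aa, which stood at 2276 and 2250.5 without iBP and 2216 and 2328 with it. In bulk RNA, fewer cells of a type and less RNA per cell cannot be told apart.

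None of the Treg genes passed the test with iBP. The Foxp3 difference was 0.15 ± 0.16 (95% interval -0.19 to 0.50), that of Il2ra -0.18 ± 0.13 (-0.45 to 0.10), of Ctla4 0.09 ± 0.11 (-0.15 to 0.33) and of Ikzf2 0.15 ± 0.16 (-0.19 to 0.49). Among 31 tested Treg core genes the median was -0.03, with 14 members above 0 and 17 below, beside 44.2% above 0 over all tested genes. The split turned to 16 above and 15 below after rescaling to TPM. Lag3, an inhibitory receptor that binds MHC class II, had the largest difference of the list, at 11.3 and 8.50 FPKM without iBP and 13.5 and 15.0 with it (0.50 ± 0.22, unadjusted p = 0.0416, adjusted p = 0.998). It was the 1 member with an unadjusted p under 0.05, beside 1.46% higher over all tested genes. The 24 genes of the IL-2 and STAT5 response had a median of 0.04 and none with an unadjusted p under 0.05 (1 higher with median-of-ratios factors and after quantile normalization), with Bcl2, a survival factor, at 39.5 and 45.3 against 46.1 and 55.8 (0.26 ± 0.17).

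Enzymes that write, read and remove Polycomb marks did not pass the test either. Kdm2b stood at 43.5 and 48.7 FPKM in stimulated cells and at 41.3 and 39.3 with iBP, and at 56.5 and 56.2 without stimulation (-0.19 ± 0.14). Rnf2, the catalytic subunit, stood at 55.4 and 44.3 against 58.3 and 52.3 (0.15 ± 0.16), and Bcor, the scaffold of PRC1.1, at 5.996 and 7.83 against 8.70 and 9.20 (0.34 ± 0.23). Over the 8 tested subunits of PRC1.1 the median was 0.07, none had an unadjusted p under 0.05, and every interval lay within 2-fold either way. Ring1 and Bcorl1 were below the filter. Eed, the PRC2 subunit that binds the H3K27me3 mark, stood at 73.3 and 71.6 against 58.5 and 46.6 (-0.46 ± 0.15, unadjusted p = 0.00882, adjusted p = 0.998), and its unstimulated libraries were at 73.9 and 66.1. It was the 1 of 12 tested PRC2 and Kdm6 genes with an unadjusted p under 0.05 (3.32% lower over all tested genes), and the list's median was -0.07. The 20 other PRC1 subunits had a median of -0.14, which was 0.06 without iBP replicate 2, and the 11 H2A deubiquitinase genes one of 0.07, with Usp22 at 35.7 and 32.9 against 40.3 and 42.6 (0.27 ± 0.15). Of 60 developmental regulators that are classical Polycomb targets, 46 were listed at 0 in every library and 55 stayed under 1 FPKM in every library. The 4 that were tested, Pax5, Cdkn2b, Ebf1 and Gata1, differed by 0.47, 0.10, 0.08 and 0.05, none with an unadjusted p under 0.05, and Pax5 and Ebf1 are B-cell genes.

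**Figure D3:**
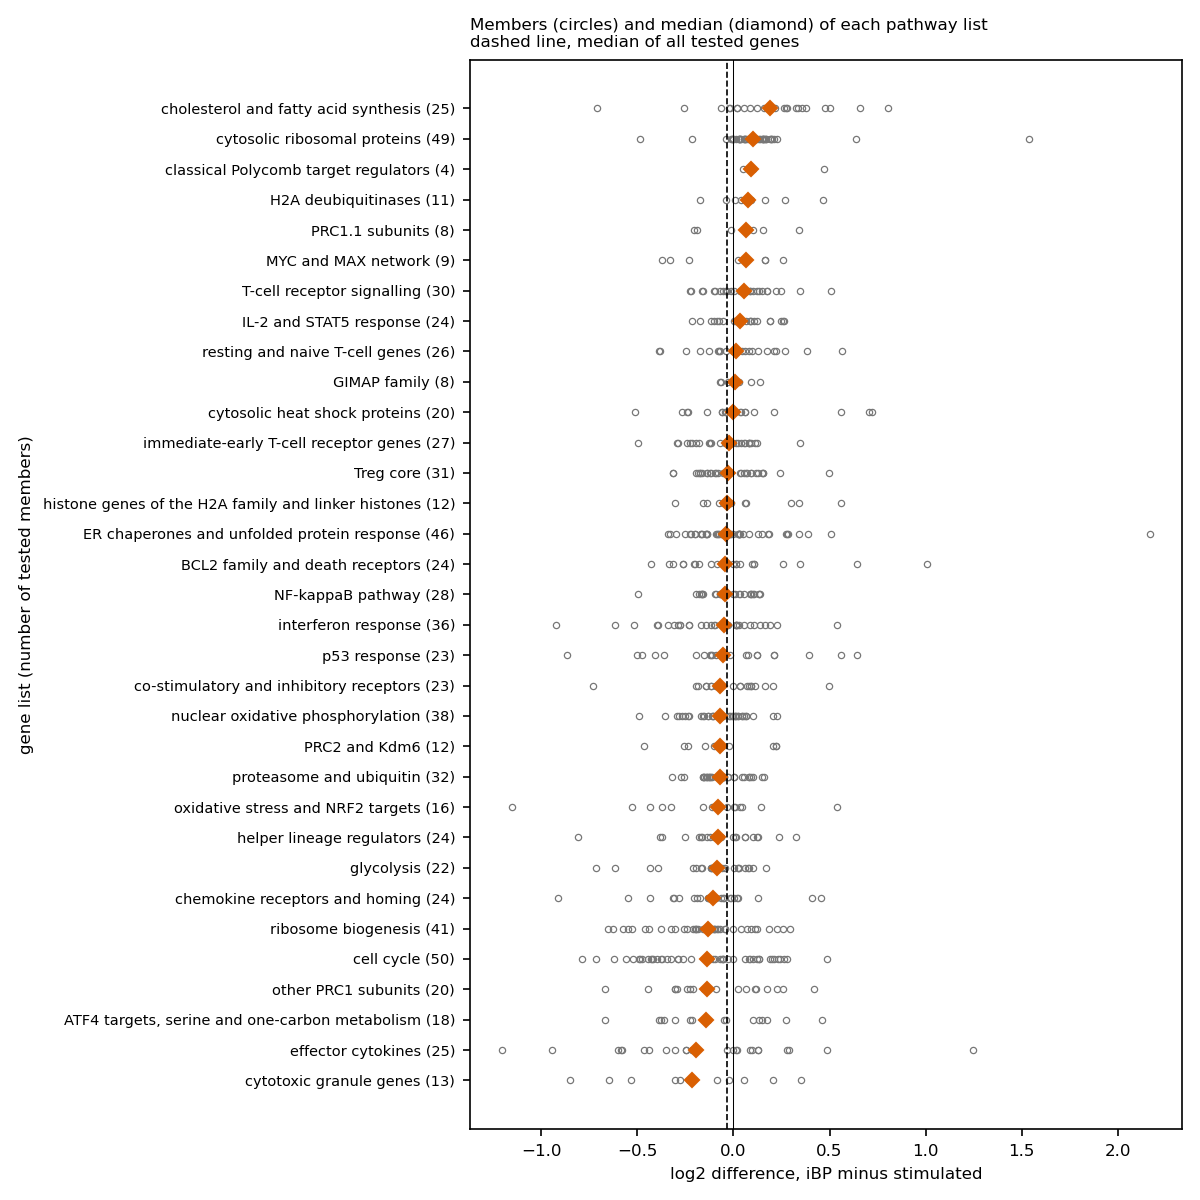
Difference with iBP (horizontal axis, log2) of every tested member (circles) of each pathway list, without the lists of cell type markers, sorted by the list's median (diamond), with the number of tested members in brackets. The dashed line is the median of all tested genes, -0.03. Medians run from -0.22 for cytotoxic granule genes to 0.19 for cholesterol and fatty acid synthesis, and Dnajb11 is the single circle beyond 2.

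Cytokine genes are the output by which stimulated T cells act on other cells. Il17a, the defining cytokine of type 17 responses, stood at 10.6 and 8.98 FPKM in stimulated cells and at 3.22 and 4.18 with iBP, above 1.36 and 0.643 in unstimulated cells. The groups did not overlap, and the difference with iBP was -1.20 ± 0.31 (95% interval -1.88 to -0.53, unadjusted p = 0.00232, adjusted p = 0.959). Il22, which acts on epithelium, stood at 129.5 and 184 against 128 and 82.5 (-0.58 ± 0.22, unadjusted p = 0.0231), and the highest iBP library lay just under the lowest stimulated one. Il17f, the close relative of Il17a, stood at 7.98 and 24.7 against 4.15 and 11.1, with overlap (-0.95 ± 0.47). Csf2 (GM-CSF) stood at 36.6 and 45.2 against 31.2 and 23.0 (-0.59 ± 0.29, unadjusted p = 0.0638). Ifng, the type 1 cytokine, pointed the other way with wide spread, at 13.1 and 3.08 against 21.2 and 13.6 (1.25 ± 0.45, unadjusted p = 0.0177). Tbx21 (T-bet), a transcription factor that drives Ifng, stood at 5.67 and 4.30 against 1.97 and 2.87 (-0.81 ± 0.30, unadjusted p = 0.0191). Il10, an anti-inflammatory product of Treg, stood at 58.3 and 49.9 against 62.5 and 55.5 (0.13 ± 0.14), and Tnf at 37.6 and 40.9 against 43.4 and 42.4 (0.13 ± 0.17).

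Of 25 tested effector cytokine genes, 10 differed upward and 15 downward, beside 44.2% upward over all tested genes. Their median of -0.20 moved to between -0.20 and -0.05 with 1 library left out. At an unadjusted p under 0.05, 1 was higher and 2 lower, beside 1.46% and 3.32% over all tested genes, and no adjusted p fell under 0.959. Cytotoxic granule genes (13 tested) had a median of -0.22 and none with an unadjusted p under 0.05, and that median was -0.08 without stimulated replicate 2. Among 24 chemokine receptor and homing genes 18 were below 0, beside 5820 of all 10436 tested genes. Their median was -0.11, and 3 were lower at an unadjusted p under 0.05 (3.32% over all tested genes), or 2 after quantile normalization. The 3 included Itgb7, the integrin chain for homing to gut, at 107 and 72.3 against 67.9 and 61.7 (-0.44 ± 0.17), and Ccr1 at 3.17 in both stimulated libraries against 1.98 and 0.642.

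**Figure D4:**
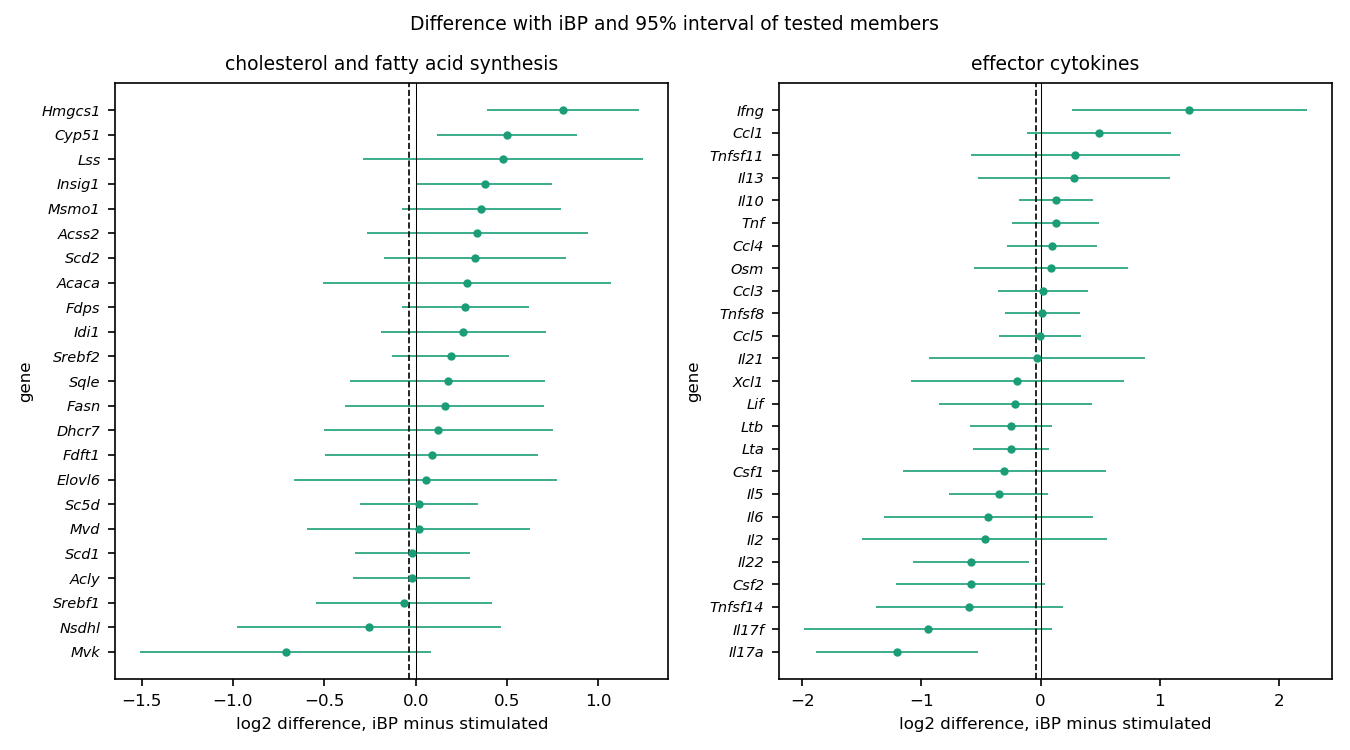
Difference with iBP (points, log2) and its 95% interval (lines) for tested members of the cholesterol and fatty acid synthesis list (left, without 2 that are not reported here) and of the effector cytokine list (right), with the median of all tested genes as a dashed line. Hmgcs1 is highest on the left at 0.81, and Il17a and Ifng lie at the ends on the right at -1.20 and 1.25.

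Genes of cholesterol and fatty acid synthesis, which SREBP transcription factors control, had the highest median of the pathway lists, 0.19. Of 25 tested members 20 were above 0 (44.2% over all tested genes), and 22 were with each of the 3 other scalings. Libraries did not overlap in 13 members that read higher and 2 that read lower, beside 13.6% higher and 21.0% lower over all tested genes. At an unadjusted p under 0.05, 3 members were higher (1.46% over all tested genes) and none lower. The median stayed between 0.19 and 0.32 with any 1 library left out, and no member passed the adjusted test. Cyp51, a demethylase of the sterol pathway, stood at 32.0 and 23.5 FPKM without iBP and 39.7 and 38.8 with it (0.50 ± 0.18, unadjusted p = 0.0149). Insig1, the sterol sensor that holds SREBP back, stood at 27.9 and 28.1 against 36.6 and 36.7 (0.38 ± 0.17, unadjusted p = 0.0453). In both genes the iBP libraries lay above the stimulated ones without overlap. The regulator Srebf2 differed by 0.19 ± 0.15, whereas Scd1 and Acly of the fatty acid branch each differed by -0.02. Mvk stood at 2.31 and 2.08 against 1.02 and 0.881 (-0.71 ± 0.36), the lowest of the list.

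Growth genes were read list by list, beside 4615 of all 10436 tested genes above 0 and 5820 below. Of 41 tested ribosome biogenesis genes 32 were below 0, with a median of -0.13 (-0.18 to -0.09 with 1 library left out), and 5 were lower at an unadjusted p under 0.05 against none higher, beside 3.32% lower and 1.46% higher over all tested genes. With each of the 3 other scalings 4 were lower. Rrs1, an assembly factor of the large subunit, stood at 46.5 and 51.7 FPKM without iBP and 31.8 and 33.3 with it (-0.58 ± 0.15, unadjusted p = 0.00239, adjusted p = 0.959). Fbl (fibrillarin), which methylates ribosomal RNA, stood at 38.6 and 39.4 against 28.2 and 24.5 (-0.55 ± 0.16), and Wdr12 at 16.9 and 18.5 against 11.7 and 10.5 (-0.63 ± 0.21). For all 3 genes the iBP libraries were the lowest 2 of the 4, without overlap. The cytosolic ribosomal proteins had a median of 0.10 with 41 of 49 members above 0, but that median turned to -0.09 without stimulated replicate 2. Cell cycle genes (50 tested) had a median of -0.14, with 35 below 0. At an unadjusted p under 0.05, 3 were lower, beside 3.32% over all tested genes. With each of the 3 other scalings 1 was lower. Aurkb, a mitotic kinase, stood at 6.80 and 6.89 against 4.51 and 2.73 (-0.79 ± 0.33). After rescaling to TPM the medians were -0.09 for ribosome biogenesis and -0.10 for the cell cycle, against 0.00 over all tested genes.

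Several further pathway lists had medians within 0.1 of that of all genes. Immediate-early genes of the T-cell receptor (27 tested) had a median of -0.02, though Ier2, an early response gene, stood at 345 and 243 against 207 and 203 (-0.50 ± 0.15, unadjusted p = 0.00583). Its unstimulated libraries were higher still, at 369.7 and 364. T-cell receptor signalling genes (30 tested) had a median of 0.05, NF-kappaB genes (28) one of -0.05 and GIMAP genes (8) one of 0.01, with every GIMAP interval within 2-fold either way. Klf2, a factor of quiescence and lymph node homing, stood at 37.4 and 37.8 against 49.5 and 49.2 (0.38 ± 0.14, unadjusted p = 0.0188), in a list of 26 resting and naive genes with a median of 0.01. Slc16a3, the lactate exporter, stood at 42.2 and 38.8 against 26.7 and 22.0 (-0.72 ± 0.22, unadjusted p = 0.00767), in a list of 22 glycolysis genes with a median of -0.09. Interferon response genes (36) had a median of -0.05 with 23 below 0, beside 5820 of all 10436 tested genes. Oxidative phosphorylation genes (38) had a median of -0.07 with none at an unadjusted p under 0.05. Hmox1, heme oxygenase, stood at 7.46 and 6.59 against 1.68 and 3.87 (-1.15 ± 0.45, unadjusted p = 0.0256).

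Genes that respond to stimulation were then read with and without iBP. The choice was made on the average of the stimulated and iBP groups relative to unstimulated cells, where 158 genes rose (1.51% of tested genes) and 96 fell (0.92%) in limma's test at an adjusted p under 0.05. It used these libraries, those with iBP included, and their shared spread. A gene lower with iBP joins those that fell more easily, and a gene higher with iBP those that rose. What follows is therefore description. The 158 had a median iBP difference of -0.02, with 25th and 75th percentiles of -0.15 and 0.09. The 96 had a median of -0.08, with percentiles of -0.22 and -0.00085, so most of them read lower with iBP, 72 below 0 against 23 above. Over all tested genes 5820 were below 0 and 4615 above. At an unadjusted p under 0.05, 16 of the 96 were lower and 1, Dnajb11, was higher, beside 3.32% and 1.46% over all tested genes. These counts are for FPKM without further scaling. Among the 158, 4 were lower and 2 higher. Intervals within 2-fold either way covered 146 of the 158 and 85 of the 96.

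Of the genes called in that contrast, the 5 highest and the 5 lowest with a group mean of at least 5 FPKM were picked by a rule set after the values were seen, which left out predicted genes, clones and small RNA genes such as 1700047I17Rik2 and Mir704. Socs1, a feedback inhibitor of cytokine signalling, stood at 317 and 288 FPKM in stimulated cells and 293 and 318 with iBP, from 44.7 and 43.3 without stimulation (0.01 ± 0.12). Gpr83, a receptor typical of Treg, stood at 162 and 163 against 157 and 178 (0.04 ± 0.12), and Gpr146 at 25.7 and 18.6 against 23.7 and 24.0. These genes rose with stimulation to overlapping levels in both groups. Bcl6, the repressor that defines follicular T cells, fell from 72.0 and 64.7 to 13.3 and 15.4, and stood at 13.5 and 15.1 with iBP (-0.0011 ± 0.17, 95% interval -0.38 to 0.37). Hes1, a Notch target, stood at 4.07 and 0.651 against 0.523 and 0.332, from 6.53 and 5.75 (-1.02 ± 0.46, unadjusted p = 0.0483). Spi1 differed by -0.33 ± 0.39 and Tff1 by 0.44 ± 0.37. Il22, Csf2 and Scand1, the other members of the 10, are described above and read lower with iBP.

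**Figure D5:**
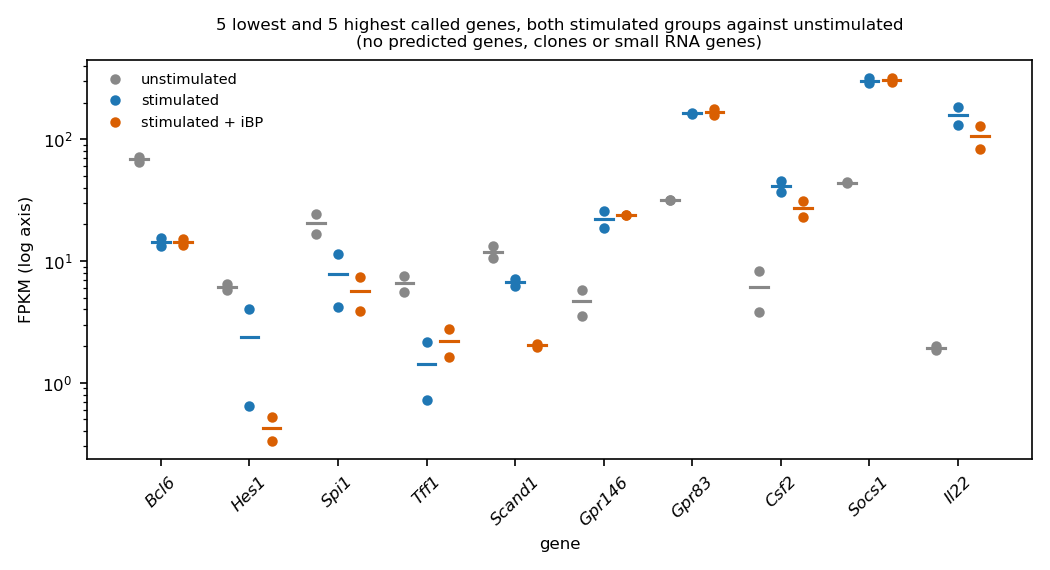
FPKM of each library on a log axis for the 5 genes lowest and the 5 highest in both stimulated groups against unstimulated cells, among called genes with a group mean of at least 5 FPKM and without predicted genes, clones and small RNA genes. Points are libraries and bars are group means. Bcl6, Gpr83 and Socs1 show overlapping stimulated and iBP libraries, whereas Scand1, Csf2 and Il22 read lower with iBP.

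Some markers of other cells moved with single libraries. The 16 tested pancreatic acinar markers had a median iBP difference of -0.96, with 15 below 0 and 6 lower at an unadjusted p under 0.05 (3.32% over all tested genes), and 1 of the 17 listed was at 0 in every library. Their summed level was 106.5 and 333.4 FPKM in the stimulated libraries, 79.0 and 120.3 with iBP and 115.6 and 86.9 in unstimulated cells, so stimulated replicate 2 stood apart, and the median was -0.20 without it. Clps, a pancreatic cofactor of lipase, stood at 8.06 and 13.9 against 4.47 and 3.62 (-1.21 ± 0.29, adjusted p = 0.794). The 10 tested erythroid and platelet markers had a median of -0.26. At an unadjusted p under 0.05, 1 was higher and 2 lower, beside 1.46% and 3.32% over all tested genes. Hba-a1 and Hba-a2 are copies whose reads can be exchanged, and their sum was 680.0 and 686.2 without iBP and 579.4 and 243.2 with it, so iBP replicate 2 was low. Hba-a1 alone gave the highest difference of all tested genes, 4.51 ± 1.61. The part of these transcripts in the genes above was not tested. With stimulated replicate 2 left out, the differences were -1.31 for Il17a, 0.82 for Hmgcs1, -1.26 for Scand1 and -0.53 for Cd79b. Those of Il17f and Ifng shrank there, to -0.19 and 0.35.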

How the data were processed

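Poly(A) RNA of 6 wild-type Treg preparations was reverse transcribed from oligo-dT and amplified by PCR, per the labels' protocols. The authors deposited FPKM per gene in 1 table. The submitters' processing notes name HISAT2 2.2.1, StringTie 2.1.1 and the mm10 assembly. No source used here gives filters, strand setting, the treatment of multi-mapped reads or depth, and PCR copies were not separated, so genes with close copies or overlaps may share reads.

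Values were analysed as log2(FPKM + 1), a scale that understates the change of low genes. The 3 group means were estimated from the 6 libraries together in limma 3.58.1 under R 4.3.3 (moderated variances with a trend, 3 residual and 8.52 prior degrees of freedom), so that the unstimulated libraries add to the estimate of the spread. Two-sided p-values were adjusted by Benjamini and Hochberg's method over 10436 genes, with 0.05 as the threshold. The fit was tested on simulated data, drawn from normal distributions with its own estimates of the spread. That test cannot show how the fit handles libraries that stand apart. Nothing in the labels ties the 2 libraries of a group to separate animals, and p-values then reflect the spread between these samples alone, which may be technical. Errors are standard errors of that fit.

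Members and gene lists were chosen with earlier results of these data known, and no list was tested as a set. Genes were named by rule: those passing, the 10 smallest p each way (no overlap, 5 FPKM or more on average in the higher group, no predicted genes or clones), up to 4 members per list by size of difference, a fixed set of Treg, Polycomb and ER stress genes, and neighbours of passing genes. Of these only those that bear on the text are described, some are not reported here, and further list members with a role in the pathway (such as Insig1, Il10, Il22 and Cd79a) were added after their values were seen. Coordinates and promoter windows are RefSeq GRCm38.p6, matched by symbol. Windows matched 79.2% of tested genes, under the 80% needed, so a planned comparison by CpG content is void. The alternatives were a pseudocount of 0.1, other filters, scalings and variance models, a fit of 4 libraries, the replicate number as a term, and leaving out each library. The remaining library of a group is then assumed to vary like the other groups. Figures were drawn with matplotlib 3.10.9.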

Additional observations from a re-analysis of the deposited data

How the results depend on the processing

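The count of 1 gene past the test was 14 without the filter on low values (7 higher and 7 lower, Dnajb11 not among them), 0 without the variance trend and between 0 and 4 with 1 library left out (0 without either stimulated replicate, 4 without iBP replicate 1, 3 without iBP replicate 2), and it was 1 under the other alternatives. The Dnajb11 difference of 2.17 kept its direction in all 16 alternatives. Its adjusted p (limma) was 0.205 without the filter and 0.2 without the variance trend at an unchanged difference of 2.17. With 1 library left out the difference lay between 2.07 and 2.26, and the adjusted p was 0.068 and 0.147 without stimulated replicate 1 or 2 and 0.0607 and 0.0420 without iBP replicate 1 or 2. Without the filter more genes share the adjustment and also enter the estimate of the spread, and with a library left out fewer samples enter. Why the adjusted p rose in each of these settings was not tested. The other 2 calls named here passed only with a library left out, Hba-a2 at -2.50 without iBP replicate 1 (adjusted p = 3.86e-05) and Rpl26 at 2.29 without iBP replicate 2 (adjusted p = 0.0420). Of 40 list medians 16 changed sign with 1 library left out, among them those of PRC1.1, the H2A deubiquitinases, Treg core genes, heat shock proteins, ribosomal proteins and B-cell markers. No shared deviation of libraries with equal replicate numbers was seen, with correlations between -0.05 and -0.01. These cannot tell whether such libraries came from the same animal or day. With the replicate number as a block 1 gene passed, Dnajb11, at an adjusted p of 0.0371. With 2 libraries a group, the 95% interval lay within 2-fold either way for 73.9% of tested genes, and depth is unknown.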
